A study of Mus musculus with 20 samples.

Results

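The effect of 7c on the kidney transcriptome was measured in 10 of the 20 RNA-seq libraries of the study, 6 from mice treated with 7c and 4 from mice treated with vehicle, and the other 10 libraries came from liver. The mice were UM-HET3 males, which descend from a cross of several inbred strains and differ genetically from one another, at an age of 12 months. The 7c group received repsox, tranylcypromine, DZNep, CHIR99021, forskolin and TTNPB, each at 0.1 mg/kg/day, and valproate at 1 mg/kg/day from osmotic minipumps implanted under the skin for 28 days. The vehicle group carried the same pumps filled with the solvent alone, a mixture of DMSO and PEG, so that surgery and solvent were shared by both groups and no kidney came from an untreated mouse. Each library was made from the RNA of a small flash-frozen piece of kidney, and the labels call the samples of a group biological replicates. Of the 57010 genes in the deposited count table, 18349 reached 10 counts or more in 4 or more kidneys and were compared.

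Each compound of 7c has a known target. Repsox blocks the TGF-beta type I receptor, CHIR99021 blocks the kinase GSK3 that restrains Wnt signalling, forskolin activates the adenylyl cyclases that make cAMP, and TTNPB activates retinoic acid receptors. Tranylcypromine, DZNep and valproate act on chromatin enzymes, namely the histone demethylase LSD1, the methyltransferase EZH2 through S-adenosylhomocysteine hydrolase, and the histone deacetylases. In cultured cells such mixtures can partly reset cell identity, and the kidney, which filters blood in glomeruli and recovers solutes along the tubule at a high cost in mitochondrial ATP, shows injury early through tubular genes such as Havcr1 (KIM-1) and Lcn2.

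The libraries held between 27855849 and 64872451 counts, the deepest being 7c replicate 1. Kidney markers were abundant in all of them, with Umod of the thick ascending limb at 1674 to 2440 CPM (read counts scaled to each library's total, with TMM size factors) and the androgen-dependent proximal tubule gene Kap at 23736 to 60558 CPM. 7c replicate 5 and vehicle replicate 2 stood apart from the other 8 kidneys. Their median Spearman correlation with the other libraries was 0.967 for each, against 0.979 to 0.981 for the rest, and they had the highest levels of ribosomal protein genes. A further difference ran within the 7c group and concerned the circadian clock. Dbp, a clock output gene, was at 93.8, 116 and 116 CPM in 7c replicates 4, 5 and 6 but at 6.44 to 16.3 CPM in 7c replicates 1, 2 and 3, with the vehicle kidneys between 13.6 and 36.5 CPM. Bmal1, which peaks in the opposite phase, was at 2.52 to 3.16 CPM in 7c replicates 4, 5 and 6, at 21.7 to 27.6 CPM in the other 3, and at 9.09 to 21.8 CPM in the vehicle kidneys. The labels give no time of collection.

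No gene changed at an adjusted p of 0.05 in edgeR's quasi-likelihood test (0 of 18349). At an unadjusted p under 0.05, 266 genes were higher (1.45% of those tested) and 225 were lower with 7c (1.23%), or 491 in either direction (2.68%). Other tools called between 2 genes (limma-voom and the newer quasi-likelihood method) and 21 genes (the likelihood ratio test), with 19 in DESeq2. The study, which also used edgeR, reported kidney genes at an adjusted p under 0.05, Zfp949, Mrap2 and Rpsa-ps10 among them. All genes of its kidney table were also called by the likelihood ratio test here. All 6 7c kidneys lay above all 4 vehicle kidneys for 63 genes (0.343%) and below them for 74 genes (0.403%). The median log2 fold change over all genes was -0.01, and 49.1% of them had a positive one. The plot of fold change against p shows Zfp949, Mrap2 and Rpsa-ps10 as the genes of lowest p, all lower with 7c, then 2 groups of genes, those abundant in liver on the lower side and those of fat cells on the higher side.

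**Figure D1:**
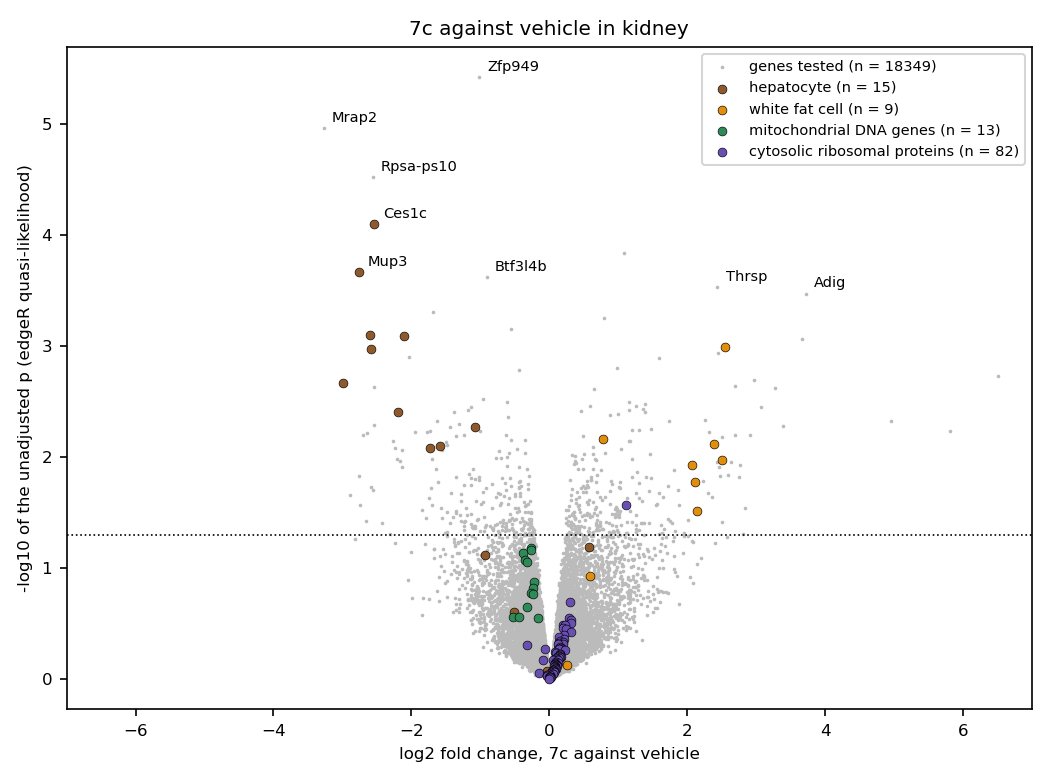
Log2 fold change of 7c against vehicle in kidney (horizontal axis) against -log10 of the unadjusted p of edgeR's quasi-likelihood test (vertical axis) for the 18349 genes tested (grey). Coloured points are the tested members of 4 lists, and the dotted line marks an unadjusted p of 0.05; 10 of 15 hepatocyte genes lie above it on the lower side and 7 of 9 white fat cell genes on the higher side.

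Zfp949, which encodes a zinc finger protein, had the lowest p of all genes. It was at 13.4, 10.7, 11.7, 10.4, 15.1 and 13.9 CPM in 7c replicates 1 to 6 and at 23.5, 26.4, 24.3 and 27.7 CPM in vehicle replicates 1 to 4. Every 7c kidney was therefore below every vehicle kidney, and the spread within each group was small. The log2 fold change was -1.02 (SE 0.13), with an edgeR adjusted p of 0.0689 that missed the threshold in the quasi-likelihood test and passed it in 9 of 22 alternative fits. The gene lies on chromosome 9 (GRCm39 chr9:88430073-88453709, plus strand). Its last 5239 bases overlap the non-coding gene 9430037G07Rik on the other strand, which had a mean of 0.333 CPM with 7c and 0.184 CPM with vehicle. In liver, the log2 fold change of Zfp949 was -1.29, with an edgeR adjusted p of 0.00293.

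Mrap2, an accessory protein of melanocortin receptors, was nearly absent from the 7c kidneys. It was at 0.394, 0.0601, 0.534, 0.311, 0.0625 and 0.336 CPM with 7c, which is 2 to 26 counts per library, and at 2.64, 3.00, 3.05 and 2.58 CPM with vehicle, or 74 to 114 counts. The groups were far apart, with a log2 fold change of -3.27 (SE 0.47, edgeR adjusted p 0.0997). Of the melanocortin receptors themselves, Mc2r, Mc1r, Mc3r, Mc4r and Mc5r had at most 12 counts in any kidney and were not tested. Mrap, the paralogous accessory protein of the ACTH receptor, was tested and had a median of 0.739 CPM with 7c and 0.216 CPM with vehicle (log2 fold change 1.86, unadjusted edgeR p 0.0196). It reached 10 counts in all 6 7c kidneys and in 1 vehicle kidney, and so passed the filter through the group in which it was high. In liver the difference in Mrap2 was more extreme, at 0 to 1 counts in the 7c libraries and 232 to 566 counts in the vehicle libraries.

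Mrap2 also lies on chromosome 9 (chr9:87025834-87066102, plus strand), and 1363971 bases separate its end from the start of Zfp949. Among the other 35 genes tested between 85 and 91 Mb of that chromosome, 17 were higher and 18 lower with 7c, and their median log2 fold change was 0.00 (-0.0029). Cep162, a centrosomal protein gene next to Mrap2, was lower in 5 of 6 7c kidneys than in any vehicle kidney (9.17 to 14.7 against 14.6 to 15.2 CPM, log2 fold change -0.36, unadjusted edgeR p 0.0252). Snap91, which encodes a clathrin assembly protein and lies on the other side of Mrap2, was at 0.311 to 1.54 CPM with 7c and 0.834 to 3.10 CPM with vehicle (log2 fold change -1.08, unadjusted edgeR p 0.054). Both genes were picked once their values were known. Of the 35 genes only Cep162 had an unadjusted edgeR p under 0.05, a share near the 2.68% of all genes called in either direction. The alleles that each mouse carried at this locus were not analysed here, and with 6 and 4 genetically distinct mice a difference in alleles between the groups and an effect of 7c cannot be told apart.

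The third gene, Rpsa-ps10, is a processed pseudogene on chromosome 3 (chr3:149778295-149779179, minus strand) of Rpsa, the laminin receptor and small-subunit ribosomal protein gene on chromosome 9. The sequences of both are shown because they decide which reads can be assigned to either. Over its 885 bases the pseudogene matched the spliced Rpsa transcript at 879, or 99.3%, with 6 mismatches and no gap, and the longest identical stretch ran for 350 bases. The stretch below, 100 bases of the reference genome from chr3:149778961-149779060 on the minus strand for the pseudogene and from base 295 of the transcript for Rpsa, holds 2 of the 6 differences, in capitals.
Rpsa: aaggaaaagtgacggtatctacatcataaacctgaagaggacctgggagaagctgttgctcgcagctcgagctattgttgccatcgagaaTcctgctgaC
Rpsa-ps10: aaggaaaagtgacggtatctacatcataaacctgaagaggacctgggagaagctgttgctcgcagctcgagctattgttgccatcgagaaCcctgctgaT
A read within one of the long identical stretches has 2 equally good positions, and how such reads were counted is not given in the sources used here, so the values of both genes are uncertain.

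Rpsa-ps10 was at 11.3, 12.3, 7.16, 12.6, 29.9 and 10.1 CPM with 7c and at 105, 27.5, 90.2 and 104 CPM with vehicle. The groups met only through the 2 libraries that stand apart, 7c replicate 5 at 29.9 CPM and vehicle replicate 2 at 27.5 CPM. The log2 fold change was -2.56 (SE 0.40, edgeR adjusted p 0.184), and without those 2 libraries it was -3.23 with an edgeR adjusted p of 2.9e-06. Rpsa itself, with far more counts, did not follow the pseudogene, at 471 to 1121 CPM (median 678) with 7c and at 379, 1153, 332 and 419 CPM with vehicle (log2 fold change 0.31, unadjusted edgeR p 0.381). Its log2 fold change lay between 0.12 and 0.91 in the fits that left out libraries. In the 3 vehicle kidneys other than replicate 2, Rpsa was below its level in every 7c kidney, while Rpsa-ps10 was above it.

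**Figure D2:**
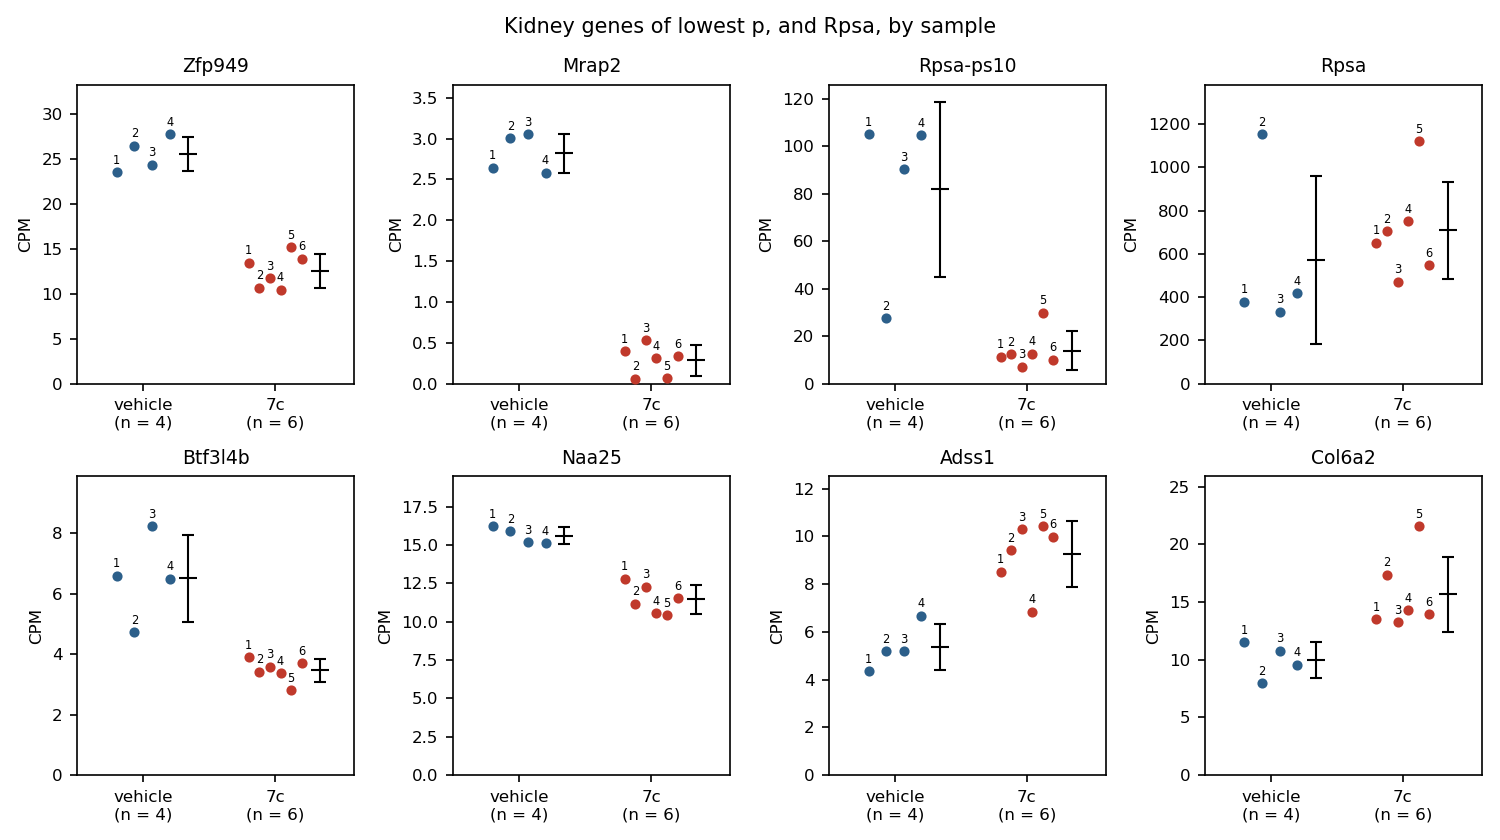
CPM (vertical axes, starting at 0) of 8 genes in each vehicle (blue) and 7c (red) kidney, with replicate numbers above the points and the mean with its SD as a black bar. Zfp949, Mrap2, Btf3l4b and Naa25 are lower and Adss1 and Col6a2 higher in all 6 7c kidneys than in all 4 vehicle kidneys, and Rpsa-ps10 overlaps through vehicle replicate 2 and 7c replicate 5.

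In several other genes the groups did not overlap either. They are examples picked from the 137 genes (0.747% of those tested) for which this was so. Btf3l4b, a copy related to the transcription factor gene Btf3l4, was at 2.81 to 3.91 CPM with 7c (median 3.5) and at 6.59, 4.73, 8.24 and 6.49 CPM with vehicle (log2 fold change -0.91, edgeR adjusted p 0.624). Naa25, the auxiliary subunit of the N-terminal acetyltransferase NatB, was at 10.4 to 12.8 against 15.1 to 16.3 CPM (log2 fold change -0.44). For both genes every 7c kidney was below every vehicle kidney, and neither adjusted p passed the threshold. Adss1, the muscle-type adenylosuccinate synthase of purine synthesis, was at 6.84 to 10.4 CPM with 7c and at 4.34 to 6.67 CPM with vehicle (log2 fold change 0.79, edgeR adjusted p 0.929). Col6a2, a chain of the matrix protein collagen VI, was at 13.3 to 21.6 against 7.95 to 11.5 CPM (log2 fold change 0.65). Gdf10, a growth factor of the BMP family, was at 9.49 to 15.3 against 6.88 to 8.38 CPM (log2 fold change 0.59). All 3 were higher in every 7c kidney than in any vehicle kidney.

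Genes whose transcripts dominate liver were lower in the 7c kidneys. Of the 15 genes on the hepatocyte list, 13 were lower and 2 higher with 7c, and 10 were lower at an unadjusted p under 0.05, against 1.23% of all genes tested. Of these 10, Ahsg, Ces1c, Cps1 and Cyp2c29 reached 10 counts in 4 kidneys within the vehicle group alone, so that they passed the filter through the group in which they were high, and the other 6 reached it in both groups. Ces1c, Mup3, Cyp2c29 and F2 also stand in the kidney gene table of the study, so the count is a description and no independent evidence of the direction. For 5 of the 15 every 7c kidney was below every vehicle kidney, against 0.403% of all genes, and the median log2 fold change of the list was -1.73. The counts were 8 to 11 of 15 under all alternatives, and without vehicle replicate 2 the median was -1.07.

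Ces1c, a carboxylesterase secreted by hepatocytes, had the lowest p of the list. It was at 0.424, 0.0901, 0.214, 0.492, 0.125 and 0.384 CPM with 7c and at 2.36, 1.39, 1.53 and 1.61 CPM with vehicle (log2 fold change -2.54, SE 0.44, edgeR adjusted p 0.366). Mup3, a urinary pheromone carrier made in liver, was at 0.240 to 0.695 CPM in 5 of the 7c kidneys and at 1.99 CPM in 7c replicate 6, against 5.89, 7.00, 3.00 and 2.69 CPM with vehicle (log2 fold change -2.76, edgeR adjusted p 0.624). For both genes the groups were separate. Cps1, the first enzyme of the urea cycle, had 0 to 14 counts with 7c and 18 to 58 with vehicle, and F2, the gene of prothrombin, had 4 to 20 against 20 to 85 counts. Serpina3k, a secreted protease inhibitor, was at 0.125 to 2.86 CPM with 7c (median 0.610) and 2.36 to 8.43 CPM with vehicle (median 6.06), and overlapped through 7c replicate 6. Alb, which encodes serum albumin, was at 8.69, 11.8, 10.9, 22.2, 13.6 and 30.7 CPM with 7c and at 44.1, 38.1, 32.7 and 22.8 CPM with vehicle (log2 fold change -1.08, unadjusted edgeR p 0.0053), where 5 of 6 7c kidneys were below all vehicle kidneys.

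The list did not move as a block. Fga, a fibrinogen chain, had a median of 20.7 CPM with 7c and 20.5 CPM with vehicle (log2 fold change -0.03), Trf, the gene of transferrin, had 29.9 and 27.1 CPM (0.14), and Apoc3, a lipoprotein component, had 10.7 and 6.13 CPM (0.58). The levels were small beside those in liver. For the 15 genes, the mean level in vehicle kidneys was a median of 0.0607% of that in vehicle livers (0.0359 to 0.436%), and in the 7c kidneys it was 0.0186% of that in the 7c livers. The summed level of the list was 71.4 to 104 CPM with 7c and 99.8 to 160 CPM with vehicle, with 5 of 6 7c kidneys below all vehicle kidneys. In liver itself the log2 fold changes of Ces1c, Mup3 and Alb were 0.06, -0.19 and 0.20. Whether these transcripts were made in kidney cells or came with the piece of tissue was not tested, and in a bulk sample fewer cells of a type and less RNA per cell cannot be told apart.

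**Figure D3:**
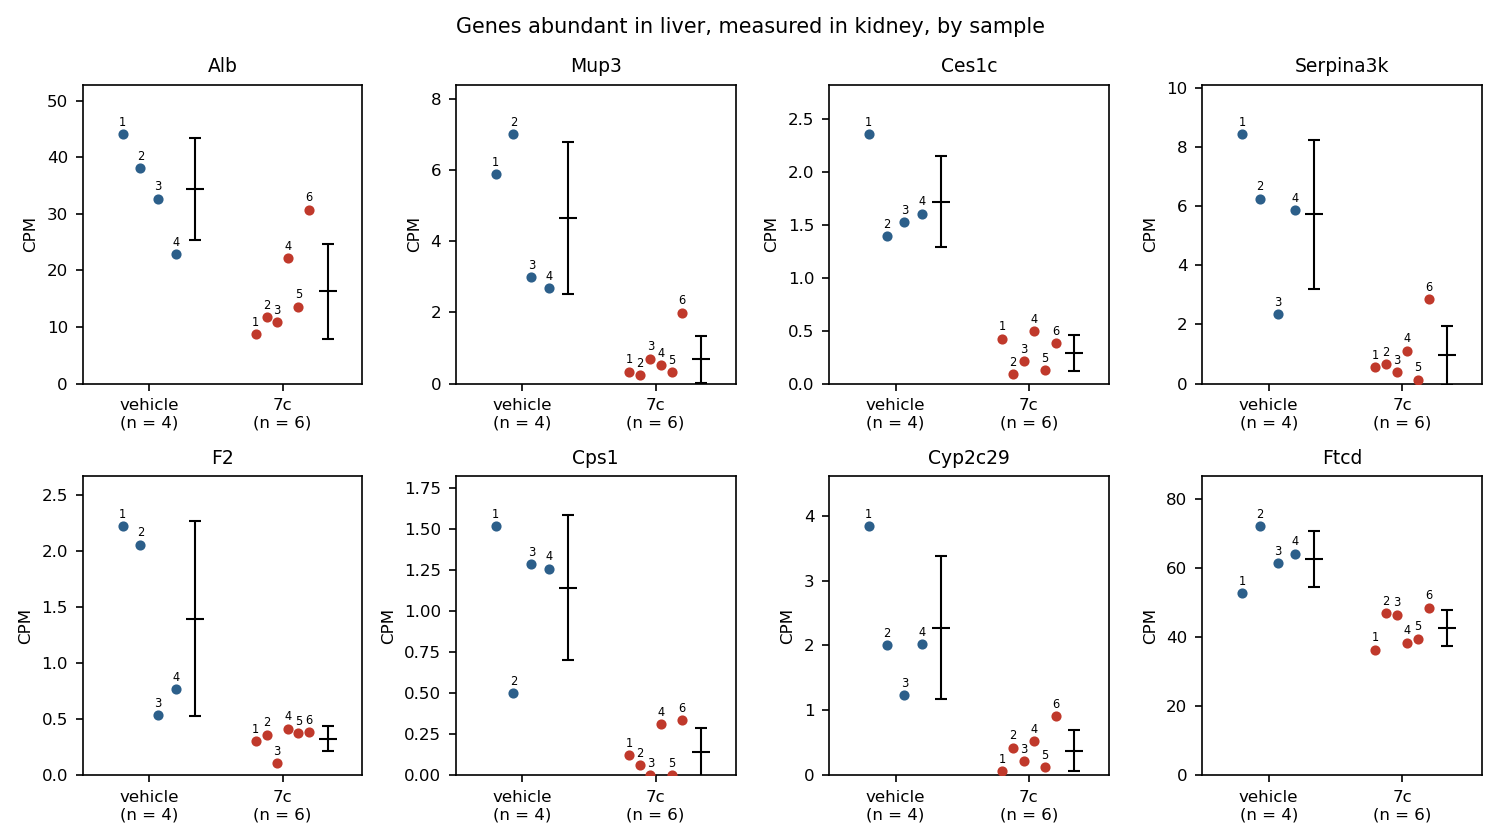
CPM (vertical axes, starting at 0) of 8 genes that are abundant in liver, measured in each vehicle (blue) and 7c (red) kidney, with replicate numbers above the points and the mean with its SD as a black bar. Mup3, Ces1c, F2, Cps1, Cyp2c29 and Ftcd are lower in all 6 7c kidneys, and for Alb and Serpina3k 7c replicate 6 reaches into the vehicle range.

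Some drug-metabolizing enzymes were also lower with 7c. Among 32 tested genes of the cytochrome P450 families 2 and 3, which oxidize drugs, steroids and fatty acids, 22 were lower and 10 higher with 7c, 5 were lower at an unadjusted p under 0.05 against 1.23% of all genes tested, and the median log2 fold change was -0.14. Those of lowest p were Cyp2c29 (0.0606 to 0.912 against 1.23 to 3.85 CPM, log2 fold change -2.60), Cyp3a25 (0 to 0.384 against 0.389 to 0.890 CPM, -2.23) and Cyp3a11 (0 to 1.39 against 1.61 to 2.89 CPM, -2.21). All 3 were lower in every 7c kidney, at levels that amounted to few reads. Cyp2e1, which oxidizes ethanol, was at 1873 to 2714 CPM with 7c and 2254 to 2718 CPM with vehicle, with a log2 fold change of -0.11. Among 43 tested conjugating enzymes of phase II, 18 were higher and 25 lower. The genes of lowest p were Ugt2b36 (log2 fold change -2.13), a glucuronosyltransferase, and Sult2a8 (-2.75), a sulfotransferase that had 0 counts in 4 of the 7c kidneys, and the list's median was -0.03. Neither reached 10 counts in 4 of the 7c kidneys, nor did 4 of the 5 P450 genes, so these calls depended on the vehicle counts to pass the filter. Cyp2c29 also stands in the kidney gene table of the study, so the P450 count is a description and no independent evidence.

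Ftcd, an enzyme of histidine breakdown that the kidney expresses at a higher level relative to liver than the 15 genes of the hepatocyte list, was also lower in all 6 7c kidneys. It was at 36.2, 46.9, 46.4, 38.3, 39.4 and 48.4 CPM with 7c and at 52.6, 72.1, 61.2 and 64.1 CPM with vehicle (log2 fold change -0.55, SE 0.12, edgeR adjusted p 0.997). Its level in vehicle kidneys was 8.92% of that in vehicle livers.

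Transcripts typical of fat cells had higher levels with 7c. All 9 tested genes of the white fat cell list had a positive log2 fold change, 7 at an unadjusted p under 0.05 against 1.45% of all genes tested, and the median was 2.12. Of these 7, Cidec and Fabp4 reached 10 counts in 4 kidneys of both groups, whereas Adipoq, Cfd, Lep, Plin1 and Retn did so in the 7c group alone and passed the filter through the group in which they were high. Cidec also stands in the kidney gene table of the study, so the count is a description and no independent evidence of the direction. For none of them were the groups fully separate. The summed level of the list was 82.9 to 228 CPM with 7c and 69.6 to 104 CPM with vehicle, with 4 of 6 7c kidneys above all vehicle kidneys. Without 7c replicate 5 and vehicle replicate 2, 7 genes were higher at an unadjusted p under 0.05, against 4.95% of all genes in that fit, and the median was 1.51.

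Cidec, which fuses lipid droplets in fat cells, was at 2.27, 2.82, 10.9, 9.69, 14.4 and 7.08 CPM with 7c and at 1.10, 0.445, 1.10 and 2.79 CPM with vehicle (log2 fold change 2.54, SE 0.60, edgeR adjusted p 0.997). Plin1, the droplet coat protein of fat cells, was at 2.57, 1.08, 7.37, 8.76, 10.7 and 2.86 CPM with 7c and at 0.523, 0, 1.61 and 1.82 CPM with vehicle (log2 fold change 2.50). Adipoq, the gene of the hormone adiponectin, was at 1.67 to 11.4 CPM (median 4.76) against 0.111 to 2.51 CPM (median 1.32), with a log2 fold change of 2.07. In all 3 genes 7c replicates 3, 4 and 5 were the highest kidneys, and 7c replicates 1 and 2 lay close to the vehicle range. The hormones and secreted factors Lep (leptin), Cfd (adipsin) and Retn (resistin) had log2 fold changes of 2.12, 2.14 and 2.39. Fabp4, a fatty acid carrier that endothelium also expresses, was at 43.9 to 100 CPM with 7c (median 56.4) and at 31.6, 48.9, 38.6 and 34.8 CPM with vehicle (0.77). Pparg, the regulator of fat cell differentiation, did not differ beyond its spread, at 1.44 to 10.9 against 0.222 to 7.74 CPM (log2 fold change 0.26). Outside the list, Adrb3, the beta-3 adrenergic receptor, was at 0.721 to 3.58 CPM with 7c and 0.209 to 0.559 CPM with vehicle (2.44), and Adig, a small droplet-associated protein of fat cells, was at 0.192 to 1.81 CPM with 7c and 0.0523 to 0.107 CPM with vehicle (3.72, edgeR adjusted p 0.686). The groups were separate for both genes, but 4 kidneys with 10 counts were found in the 7c group alone, so that both genes passed the filter through the group in which they were high.

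Cidea and Cox8b, from the brown fat list, were high in 3 of the 7c kidneys. Both reached 10 counts in 4 of the 7c kidneys and in 0 vehicle kidneys, so that they were tested only through the group in which they were high. Cidea, a droplet protein of brown fat, had 210, 0, 12, 306, 140 and 0 counts in 7c replicates 1 to 6 and 2, 0, 0 and 4 counts in the vehicle kidneys. Ucp1, the uncoupling protein that defines brown fat, had 0 to 1229 counts in the 7c kidneys and 0 counts in all 4 vehicle kidneys, and it was not tested because too few kidneys reached 10 counts. Cox8b, a cytochrome oxidase subunit of brown fat and muscle, was at 2.51, 6.06 and 2.19 CPM in 7c replicates 1, 4 and 5 and at no more than 0.336 CPM in any other kidney. The other 2 tested genes of the list differed from this pattern. Elovl3, a fatty acid elongase named after its values were seen, was at 1.84 CPM in 7c replicate 4 and at no more than 0.212 CPM in the other 7c kidneys. It reached 10 counts in all 4 vehicle kidneys but in only 2 of the 7c kidneys. Cox7a1, another cytochrome oxidase subunit, was at 9.60, 11.1 and 15.1 CPM in 7c replicates 1, 4 and 5 and at 5.42 to 7.06 CPM in the other 7c kidneys, but was highest in vehicle replicate 2 (16.0 CPM), so that the summed level of the list was 16.4 CPM there, against 15.5, 27.0 and 21.7 CPM in 7c replicates 1, 4 and 5. Fat lies around the kidney and in its sinus, and whether these values came from adhering fat was not tested.

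Genes of fatty acid synthesis, which tubule cells as well as fat cells express, also leaned to the higher side, with no gene past the adjusted threshold. Of 12 tested genes of de novo lipogenesis, 10 had a positive log2 fold change, 4 at an unadjusted p under 0.05 against 1.45% of all genes (3 of which reached 10 counts in 4 kidneys of both groups), and for 2 of them the groups did not overlap, against 0.343% of all genes. Thrsp, one of the 4, also stands in the kidney gene table of the study, so the count is a description and no independent evidence of the direction. The list's summed level was 1442 to 1919 CPM with 7c and 1189 to 1427 CPM with vehicle, so that every 7c kidney was above every vehicle kidney, and its median log2 fold change was 0.29.

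Thrsp (Spot 14), a small protein that promotes lipogenesis, had the lowest p. It was at 11.2, 5.46, 15.3, 29.4, 21.4 and 5.33 CPM with 7c and at 3.82, 2.22, 3.05 and 1.68 CPM with vehicle (log2 fold change 2.44, SE 0.49, edgeR adjusted p 0.673). Scd1, the desaturase that makes oleic acid, was at 148, 107, 201, 356, 136 and 129 CPM with 7c and at 71.2, 57, 105 and 89.1 CPM with vehicle (log2 fold change 1.15, SE 0.32, edgeR adjusted p 0.997). Neither gene overlapped between the groups, although 7c replicate 2 was close to the highest vehicle kidney for Scd1. Fasn, the fatty acid synthase, was at 172, 132, 194, 321, 228 and 97.2 CPM with 7c and at 124, 109, 116 and 122 CPM with vehicle (0.70, unadjusted edgeR p 0.0208), and 7c replicate 6 was below all vehicle kidneys. Me1, which supplies NADPH for the same pathway, was at 591 to 691 against 525 to 638 CPM (0.12). 7c replicate 4 was the highest kidney for Thrsp, Scd1 and Fasn, and without it their log2 fold changes were positive as well.

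Of 22 tested lipid droplet genes, 17 were higher and 5 lower with 7c and 4 were higher at an unadjusted p under 0.05, against 1.45% of all genes, led by Cidec, Cidea and Plin1, which the fat cell lists also hold. Cidea and Plin1 reached 10 counts in 4 kidneys of the 7c group alone, and Cidec stands in the kidney gene table of the study. The count is therefore a description and no independent evidence of the direction. Plin2, the droplet coat protein of most other cells, tubule cells included, was at 60.6, 59.3, 50.7, 45.5, 83.2 and 65.7 CPM with 7c and at 16.2, 68.6, 22.2 and 51.4 CPM with vehicle. The vehicle kidneys spread from 16.2 to 68.6 CPM, and the log2 fold change of 0.62 (SE 0.34, unadjusted edgeR p 0.0939) did not exceed that spread. It lay between 0.36 and 1.03 in the fits that left out libraries. Dgat2, which adds the last fatty acid of triglycerides, was above all vehicle kidneys in 5 of 6 7c kidneys but by little, at 198 to 236 against 189 to 198 CPM (0.13). In the liver the log2 fold changes of Thrsp, Scd1 and Fasn were 0.75, 0.52 and 0.38, and the interaction test found no difference between the tissues for these genes at an adjusted p of 0.05.

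**Figure D4:**
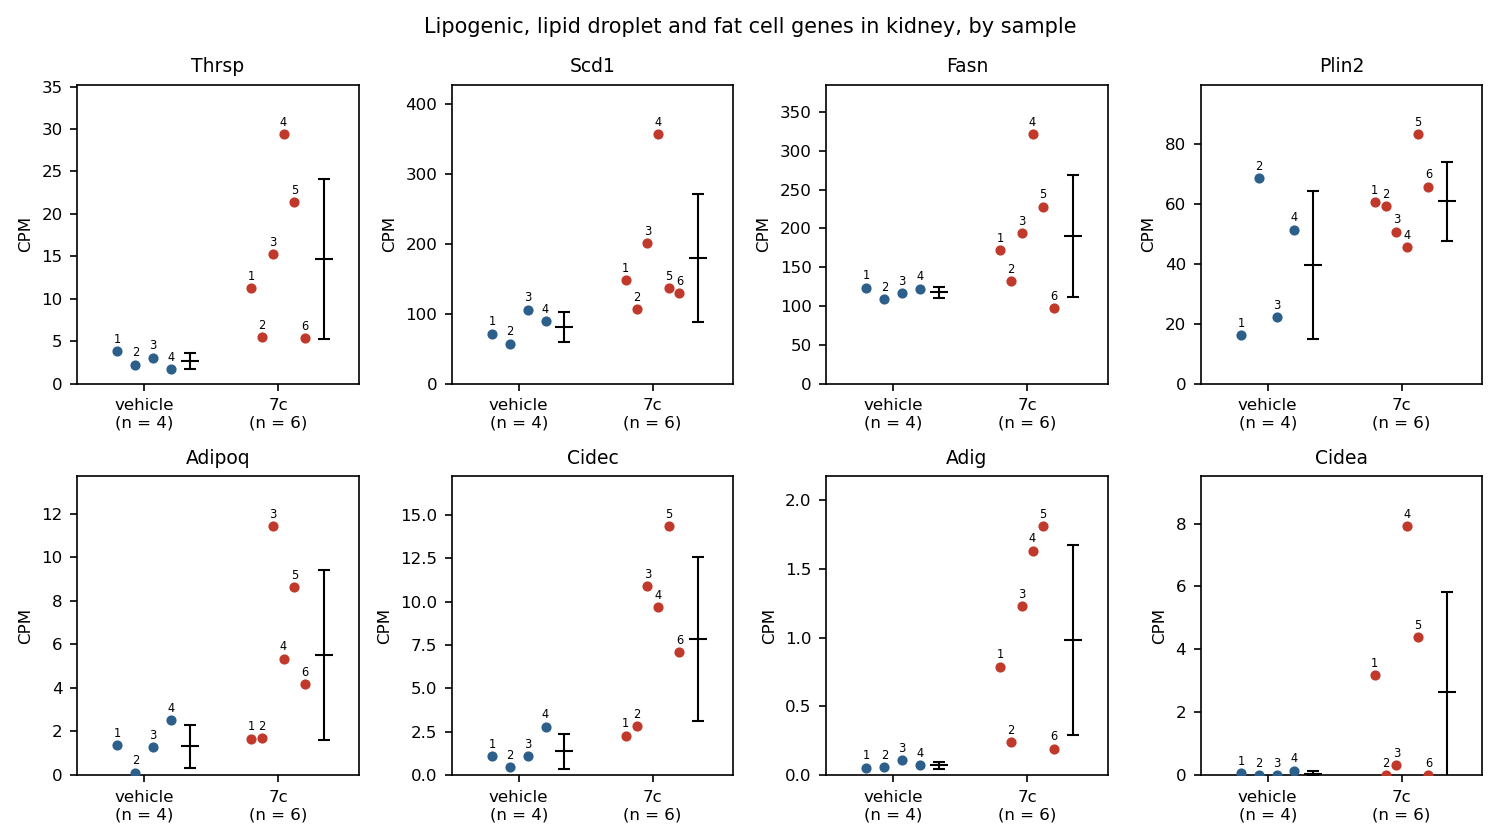
CPM (vertical axes, starting at 0) of lipogenic (Thrsp, Scd1, Fasn), lipid droplet (Plin2) and fat cell genes (Adipoq, Cidec, Adig, Cidea) in each vehicle (blue) and 7c (red) kidney, with replicate numbers above the points and the mean with its SD as a black bar. Thrsp, Scd1 and Adig do not overlap, Plin2 overlaps through vehicle replicates 2 and 4, and Cidea is high in 7c replicates 1, 4 and 5.

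The segments of the nephron showed no gene past the adjusted threshold. All 8 podocyte genes had negative log2 fold changes (median -0.19), 0 of them at an unadjusted p under 0.05. Their summed level was 260 to 297 CPM with 7c and 302, 255, 308 and 319 CPM with vehicle, and the groups overlapped through vehicle replicate 2. Podxl (podocalyxin), the anti-adhesive coat protein of podocytes, was at 134 to 148 CPM with 7c (median 139) and at 148, 112, 162 and 160 CPM with vehicle (-0.07, unadjusted edgeR p 0.58). Slc34a1, the phosphate transporter of the convoluted proximal tubule, was at 5821 to 7614 CPM with 7c and 6002 to 6966 CPM with vehicle, a log2 fold change of 0.01. The list medians were -0.17 for the convoluted and 0.05 for the straight proximal tubule, 0.03 for the thick ascending limb, -0.04 for the distal convoluted tubule, 0.11 for principal cells and 0.07 for intercalated cells. Among these tubule genes a single one had an unadjusted p under 0.05, a share near the 2.68% of all genes called in either direction. It was Hsd11b2, which protects the mineralocorticoid receptor of principal cells from cortisol-like steroids, at 164, 167, 136, 191, 149 and 180 CPM with 7c and at 145, 146, 107 and 139 CPM with vehicle (0.29, unadjusted edgeR p 0.0409).

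Genes of tubular injury showed no common direction and no gene past the adjusted threshold. Of 13 tested, 5 were higher and 8 lower, and the median log2 fold change was -0.07. Havcr1 (KIM-1), which injured proximal tubules put on their surface, was at 22.9, 20.3, 1.18, 8.86, 2.44 and 7.25 CPM with 7c and at 15.4, 0.612, 26.7 and 2.16 CPM with vehicle. It varied over a wide range within both groups, and its log2 fold change of -0.10 had an SE of 0.90. Lcn2 (NGAL) was at 0.648 to 4.88 against 0.628 to 3.59 CPM (-0.08). Ccl2, which attracts monocytes, was the one gene of the list at an unadjusted p under 0.05, which 2.68% of all genes reached in either direction, and it was lower with 7c, at 0.375 to 0.908 against 0.768 to 2.92 CPM (-1.14, unadjusted edgeR p 0.0154).

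Among genes of mineral balance, Cyp24a1, the enzyme that inactivates vitamin D, was at 29.6, 17.1, 20.1, 28.6, 30.7 and 75.3 CPM with 7c and at 20.5, 113, 77.2 and 105 CPM with vehicle (log2 fold change -1.23, unadjusted edgeR p 0.0178). The groups overlapped through vehicle replicate 1. Kl (klotho), the co-receptor of FGF23, was at 346 to 742 against 422 to 801 CPM (-0.21). In the renin-angiotensin system, Agt, the precursor of angiotensin, was at 33.7, 68.9, 21.4, 97.6, 99.8 and 90.7 CPM with 7c and at 23.4, 53.1, 46.0 and 20.5 CPM with vehicle (0.94, unadjusted edgeR p 0.047), and the 3 highest kidneys were 7c replicates 4, 5 and 6, the kidneys of high Dbp. The part of that clock difference in the Agt values was not tested. Ren1 (renin) was at 71.6 to 178 against 95.2 to 115 CPM (0.31).

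Stress genes showed 2 transcription factors of the integrated stress response. Atf3 was at 1.20 to 3.00 CPM with 7c (median 1.82) and at 0.785, 0.445, 1.34 and 0.838 CPM with vehicle (log2 fold change 1.17, unadjusted edgeR p 0.0072). Atf4 was at 80.9 CPM in 7c replicate 6, at 96.1 CPM or more in the other 5 7c kidneys (median of all 6, 101 CPM), and at 84.0, 75.7, 78.3 and 81.1 CPM with vehicle (0.37, unadjusted edgeR p 0.00969), above all vehicle kidneys in 5 of 6. In the list of 10 genes of the unfolded protein and integrated stress responses these were the 2 at an unadjusted p under 0.05, against 1.45% of all genes called higher, and 9 of the 10 had a positive log2 fold change, against 49.1% of all genes. Of 8 heat shock genes 7 were higher, 0 at an unadjusted p under 0.05, and Hspa1a ranged from 5.30 to 59.1 CPM with 7c against 4.71 to 15.2 CPM with vehicle (1.14).

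Genes that respond to the compounds' pathways gave few calls. In the retinoic acid list, 4 of 9 tested genes were higher and 5 lower. Cyp26b1, which degrades retinoic acid and is induced by it, was at 2.83, 0.300, 33.8, 5.85, 4.69 and 0.528 CPM with 7c and at 0.837, 3.17, 1.07 and 5.69 CPM with vehicle (log2 fold change 1.58, SE 1.07). The high value belonged to 7c replicate 3 alone, and without it the log2 fold change was 0.09. Of 12 Wnt targets 4 were higher and 8 lower, and Axin2 was at 0.438 to 1.49 against 0 to 1.90 CPM (0.08). Of 13 genes of the cAMP/CREB response 6 were higher and 7 lower, and Nr4a1 was at 4.44 to 7.99 against 0.834 to 8.17 CPM (0.20). Of 13 TGF-beta targets 10 were higher and 3 lower, and Ccn2, a matrix-associated growth factor, was at 40.2 to 76.4 against 33.7 to 58.2 CPM (0.15). The Wnt, cAMP/CREB and TGF-beta lists held no gene at an unadjusted p under 0.05.

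The genes encoding the compounds' targets leaned to the lower side, with 17 of 25 lower and a median log2 fold change of -0.13. Among the adenylyl cyclases, Adcy4 was at 4.30 to 11.6 against 4.12 to 5.84 CPM (0.59, unadjusted edgeR p 0.0345) and Adcy9 at 4.75 to 9.65 against 6.25 to 12.5 CPM (-0.51, unadjusted edgeR p 0.0369), so that the 2 calls of the list, against 2.68% of all genes, went in opposite directions. Ahcy, the hydrolase that DZNep inhibits, lay at 2 levels in both groups, at 116.5, 230, 123.3, 119, 113 and 214 CPM with 7c and at 224, 221, 121 and 258 CPM with vehicle. The lower level was seen in 4 of 6 7c kidneys and 1 of 4 vehicle kidneys, and the log2 fold change was -0.43 (unadjusted edgeR p 0.116).

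Ribosomal and mitochondrial genes depended on the 2 libraries that stand apart. Of 82 tested genes of cytosolic ribosomal proteins 72 were higher with 7c, with a median log2 fold change of 0.10 and 1 gene, Rpl29, at an unadjusted p under 0.05, against 1.45% of all genes. The summed level was 15149 to 32150 CPM with 7c, the highest being 7c replicate 5, and 13941 to 15684 CPM in 3 vehicle kidneys against 31507 CPM in vehicle replicate 2. Without vehicle replicate 2, 81 of the 82 genes were higher, 47 at an unadjusted p under 0.05, and the median was 0.46, while 6.58% of all genes were then called higher. Without 7c replicate 5, 63 of the 82 were lower and the median was -0.05, with 1.11% of all genes called higher. Without both libraries, 80 were higher, 39 at an unadjusted p under 0.05 against 4.95% of all genes, and the median was 0.30. The direction of this list therefore rested on which libraries were included.

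The nuclear genes of the respiratory chain followed the same libraries. Of 38 complex I genes 33 were higher (median 0.08) with 0 at an unadjusted p under 0.05, and without both libraries 37 were higher, 10 of them at an unadjusted p under 0.05 against 4.95% of all genes (median 0.23), whereas without 7c replicate 5 alone 26 were lower (median -0.04). For complex IV, 11 of 13 were higher (median 0.08), and Cox4i1, one of its nuclear subunits, was at 1375 CPM in 7c replicate 5 and 1135 CPM in vehicle replicate 2 and between 545 and 853 CPM in the other kidneys. The 13 protein-coding genes of mitochondrial DNA went the other way, all 13 with a negative log2 fold change (median -0.26) and 0 at an unadjusted p under 0.05. All genes of mitochondrial DNA together made up 3.98 to 9.10% of the counts with 7c and 6.73 to 9.15% with vehicle, with 7c replicate 5 the lowest. Without both libraries 12 of the 13 protein-coding genes were lower (median -0.18).

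**Figure D5:**
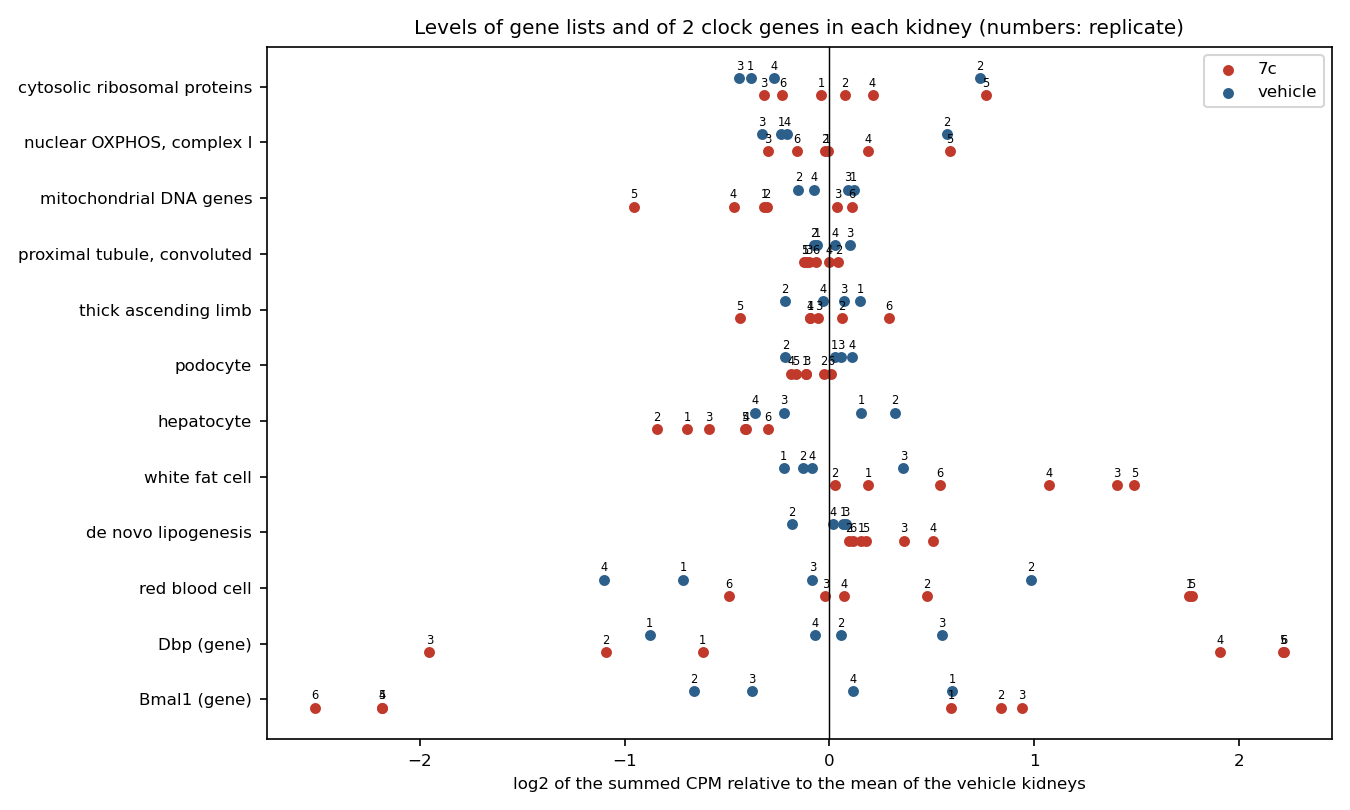
Log2 of the summed CPM of 10 gene lists, and of the CPM of the clock genes Dbp and Bmal1, relative to the mean of the 4 vehicle kidneys (horizontal axis), for each vehicle (blue) and 7c (red) kidney, with replicate numbers above the points. Vehicle replicate 2 and 7c replicate 5 are far to the right for ribosomal proteins and complex I, all 7c kidneys are above all vehicle kidneys for de novo lipogenesis, and 7c replicates 4, 5 and 6 are separate from the rest for Dbp and Bmal1.

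Blood and immune genes varied from mouse to mouse. All 5 red blood cell genes were higher (median 0.84), 0 at an unadjusted p under 0.05, with Hba-a1 (alpha-globin) at 1038, 434, 245, 337, 1136 and 193 CPM with 7c and 162, 658, 242 and 114 CPM with vehicle. Ighg2c, an antibody constant region, was at 0.107 to 1.78 CPM with 7c and at 2.17, 9.15, 1.18 and 9.18 CPM with vehicle (log2 fold change -2.54, unadjusted edgeR p 0.00234). Cd209g, a lectin gene, and Ccl24, an eosinophil attractant, were higher in every 7c kidney than in any vehicle kidney, but at no more than 0.661 and 0.622 CPM, and both reached 10 counts in 4 of the 7c kidneys and in 0 vehicle kidneys, so that they were tested only through the group in which they were high. Csf1r, the receptor that marks macrophages, was at 65.3 to 77.4 against 74.5 to 95.4 CPM (-0.20, unadjusted edgeR p 0.0774), and Cd74, of antigen-presenting cells, at 147 to 397 against 144 to 307 CPM (0.35).

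The effect of 7c in kidney differed from that in liver for 4 of the 14685 genes tested in both tissues (0.0272%, edgeR's interaction test at an adjusted p of 0.05), and 2.61% had an unadjusted p under 0.05. Livers and kidneys may come from the same mice, which this fit does not use, and with a replicate block the count was 2. With 10 counts required in 5 of 10 samples it was 1. Mrap2 and Dnajc6 in liver, and Ces1c in kidney, reached 10 counts in 4 libraries of the vehicle group alone. These 3 genes therefore passed the filter through the group in which they were high. For Mrap2 the difference between the log2 fold changes was 7.04 (edgeR adjusted p 0.00129), the gene being lower with 7c in both tissues and almost without counts in the 7c livers. Ces1c was lower in the 7c kidneys and nearly equal in the livers (difference -2.54, edgeR adjusted p 0.00507). The other two did not differ between the kidney groups. Dnajc6 (auxilin), which uncoats clathrin vesicles, was at 11.8 to 22.7 CPM with 7c and 13.2 to 25.6 CPM with vehicle in kidney, while it had 0 to 2 counts in 7c livers and 10 to 18 in vehicle livers (difference 3.89, edgeR adjusted p 0.0194). Cyp46a1, a cholesterol hydroxylase, was at 1.84 to 4.03 against 2.36 to 3.92 CPM in kidney, while it had 166 to 3709 counts in 7c livers and 77 to 301 in vehicle livers (difference -4.24, edgeR adjusted p 0.0435).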

How the data were processed

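RNA of 10 kidneys (6 7c, 4 vehicle) was compared. The authors aligned reads to GRCm39 with STAR 2.7.11b and counted them on genes with featureCounts 2.0.6. The deposited values are raw counts per gene. How reads with several positions were treated is not given in the sources used here. Of the counts from 1 to 20, 75.5 to 81.4% were even, so counts may include both ends of a fragment and overstate independent molecules. Symbols and positions came from GENCODE vM39.

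Genes reaching 10 counts in 4 kidneys were tested with edgeR 4.0.16 (R 4.3.3; TMM, quasi-likelihood F-test, no covariate, Benjamini-Hochberg adjustment over all 18349 genes). CPM uses TMM-scaled totals. The interaction was fitted to all 20 libraries. Methods were tested on simulated data. Members and 57 gene lists were chosen with earlier results of these data known. Genes named were those of lowest p in each direction, in the study's kidney gene table, of lowest p or highest level in each list, past the interaction threshold, and 10 fixed genes. The rule gave 99 of the 114 genes with alternatives, and the other 15 (such as Adipoq, Dbp, Bmal1, Snap91 and Cep162) were picked once their values were known. Some genes are not reported here.

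Alternatives were RLE factors, DESeq2 1.42.0, limma-voom (limma 3.58.1), the likelihood ratio and newer quasi-likelihood tests, other filters, a replicate block, both tissues in 1 fit, sva 3.50.0, and leaving out each library. Leaving out 7c replicate 5 with vehicle replicate 2 was added after the data were seen.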

Additional observations from a re-analysis of the deposited data

Results flagged for a closer look

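The differences between the kidney and liver effects of 7c for Mrap2 (7.04), Ces1c (-2.54), Dnajc6 (3.89) and Cyp46a1 (-4.24, all log2) were past an adjusted p of 0.05 in edgeR's interaction test. Mrap2 and Dnajc6 in liver, and Ces1c in kidney, passed the filter through the vehicle group alone. In 38 of the 342 groups of kidneys examined, 1 kidney lay far from the others by Dixon's criterion, which chance alone meets in a small share of groups. Vehicle replicate 2 was that kidney in 17 of them and 7c replicate 5 in 6.

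Vehicle replicate 2 was the highest vehicle kidney for Rpsa (1153 CPM), Cox7a1, a respiratory chain subunit (16 CPM), Xlr3b, an X-linked lymphocyte-regulated gene (0.834 CPM), the retinaldehyde reductase Dhrs3 (396 CPM), Cox4i1 (1135 CPM), Rpl29 (101 CPM) and Rpl4 (967 CPM). It was also the highest for the summed CPM of cytosolic ribosomal proteins (31507), mitochondrial ribosomal proteins (5390), the nuclear genes of complexes I (9022), III (3918), IV (5803) and V (13106), brown fat cell genes (16.4) and skeletal muscle genes (3.45), and it was the lowest for splicing factors (2931) and pluripotency genes (183). 7c replicate 5 was the highest 7c kidney for Rpsa-ps10 (29.9 CPM), Lcn2 (4.88 CPM), Cox4i1 (1375 CPM), Kap (60558 CPM), the 1 tested exocrine pancreas gene (182 CPM) and the summed male-biased kidney genes (65283 CPM). 7c replicate 6 was the highest for Mup3 (1.99 CPM), Serpina3k (2.86 CPM), Sult2a8 (0.480 CPM), Cyp24a1 (75.3 CPM) and the summed Wnt/beta-catenin response (316 CPM).

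In the remaining kidneys, 7c replicate 3 was the highest for Cyp26b1 (33.8 CPM) and the lowest for F2 (0.107 CPM), 7c replicate 4 was the highest for Elovl3 (1.84 CPM) and Hspa1a (59.1 CPM), and 7c replicate 2 was the highest for Nr4a1 (7.99 CPM). Vehicle replicate 3 was the highest for Car3, a carbonic anhydrase of fat and muscle (51.5 CPM), and for Spp1 (osteopontin, 549 CPM), vehicle replicate 4 for Gdf10 (8.38 CPM), and vehicle replicate 1 for Igha, the heavy chain of IgA (527 CPM), and for the summed lymphocyte and plasma cell genes (923 CPM).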

How the results depend on the processing

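The number of genes past an adjusted p of 0.05 in kidney, 0 in the quasi-likelihood fit, was 19 in DESeq2, 21 in the likelihood ratio test, 2 in limma-voom and in the newer quasi-likelihood method, 3 without a filter, 18 with both tissues in 1 fit and 1 with 1 surrogate variable. It was 0 to 3 when 1 library was left out: 3 without 7c replicate 5 (Zfp949, Mrap2 and Rpsa-ps10), 1 without 7c replicate 6 (Mup3) and 1 without vehicle replicate 2 (Rpsa-ps10), and 3 without 7c replicate 5 and vehicle replicate 2 together, an alternative chosen after seeing the data. Genes higher at an unadjusted p under 0.05 (266) numbered 612 without a filter, 177 with the replicate block, 517 with 1 surrogate variable, 909 without both libraries, and 197 to 1208 without 1 library, the highest being 418 without 7c replicate 3 and 1208 without vehicle replicate 2. Genes lower (225) numbered 794, 472 and 644 without a filter, with 1 surrogate variable and without both libraries, and 172 to 631 without 1 library, the highest being 387 without 7c replicate 3 and 631 without vehicle replicate 2. The same replicate numbers did not pair the kidneys: the correlation of deviations from the group means was 0.026, -0.0025, 0.18 and -0.036 for numbers 1 to 4, and the block gave 0 genes past the adjusted threshold and 221 lower at an unadjusted p under 0.05. The 4 interaction genes became 19 in DESeq2, 32 in the likelihood ratio test, 1 with 10 counts in 5 of 10 samples, 11 without a filter and 2 with the replicate block, and 2 to 16 without 1 library, 16 without 7c kidney replicate 6. Elovl3, a fatty acid elongase of brown fat, had a log2 fold change of 0.07 that was -2.20 without 7c replicate 4 and at most 0.35 under any alternative. Of 2498 gene values under alternatives, 2347 kept their direction and their side of the threshold, 90 changed sign at an unadjusted p of 0.05 or more in both fits, 60 passed the threshold where the quasi-likelihood fit did not and 1 (Elovl3, above) changed sign at an unadjusted edgeR p of 0.0244; for these the cause was not tested. Depth limits the genes given as counts.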

Other observations

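Several lists that no comparison above uses leaned one way without a gene past the adjusted threshold. All 8 endothelial genes had positive log2 fold changes (median 0.09), 0 of them at an unadjusted p under 0.05, whereas without vehicle replicate 2 the log2 fold changes of 4 of the 8 were positive (median 0.03). Among 14 genes of the interferon response 10 were higher (median 0.21). Among 77 genes of mitochondrial ribosomal proteins 56 were higher (median 0.06), but without 7c replicate 5 47 were lower (median -0.03), and their summed level was 5513 CPM in 7c replicate 5 and 5390 CPM in vehicle replicate 2, against 3116 to 4294 CPM in the other kidneys. Cholesterol synthesis and uptake, with 11 of 15 higher (median 0.05), and fat oxidation under PPAR-alpha, with 8 of 18 higher (median -0.06), stayed near the median of all genes. Of the 4 urothelial genes tested, 3 passed the filter through the 7c group alone. The fourth, Upk1a, a plaque protein of the urinary lining, was at 0.481 to 1.88 CPM with 7c and 0.366 to 0.943 CPM with vehicle (1.00, unadjusted edgeR p 0.0471).

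Acta1, the skeletal muscle actin, was at 0.939, 0.0601, 0.214, 1.45, 0.688 and 0.288 CPM in 7c replicates 1 to 6, and at 0.157, 0, 0.161 and 0.0698 CPM in the vehicle kidneys (log2 fold change 2.60). It reached 10 counts in 4 of the 7c kidneys and in 0 vehicle kidneys, and so was tested only through the group in which it was high. Its highest values were in 7c replicates 4, 1 and 5, the same kidneys in which Cidea and Cox8b were high. The clock genes Npas2 and Per1 divided the 7c kidneys as Bmal1 and Dbp did: Npas2 was at 25.1 to 29.7 CPM in 7c replicates 1, 2 and 3 and at 3.38 to 6.94 CPM in 7c replicates 4, 5 and 6, and Per1 at 11.9 to 22.5 CPM and at 32.4 to 61.2 CPM.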
